A study of Mus musculus with 15 samples.

Results

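Megakaryocyte and erythroid genes were followed in transformed mouse fetal liver cells with and without the transcription factors C/EBPα and C/EBPβ. The set was defined by gene symbol and holds 9 genes, Gata1, Zfpm1, Tal1, Gfi1b, Klf1, Epor, Itga2b, Pf4 and Car2, out of 53379 genes in the table. RNA-seq libraries of 5 groups were compared, with 3 libraries in each. All cells were MLL-ENL-transformed fetal liver cells, which carry a retroviral leukaemia fusion oncogene and were kept in 10 ng/ml murine IL-3. WTFL cells (labelled WT) are wild-type by genotype label and, by the methods of the study, hold floxed Cebpa and Cebpb alleles, and dKO cells (Cebpa KO, Cebpb KO) express GFP. dKO-LAP* cells (labelled LAPS) have the dKO genotype and GFP as well, and additionally carry LAP*, a rat C/EBPβ isoform. WTFL and dKO cells were measured in 2 clones from different mice, C1 and C2, and dKO-LAP* cells are described here in C1. Each group is thus a single line, and its 3 libraries are RNA isolations from different time points, so that p-values measure the spread between isolations and not between independent clones. By the paper, dKO clones were rare survivors of the deletion, and all expressed the related factor C/EBPε. Partly deleted clones were pooled before the last deletion step, so a WTFL line is not shown to be the parent of a dKO line. Loss of C/EBPα and C/EBPβ and this selection cannot be told apart in the dKO differences below.

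Gata1 is a zinc finger factor required for red cell and megakaryocyte maturation. Zfpm1 (FOG1) is its cofactor, Tal1 joins it in DNA-bound complexes, Gfi1b is a repressor needed in both lineages, and Klf1 activates globin and other red cell genes. Epor is the erythropoietin receptor, Itga2b encodes CD41, the platelet integrin chain, Pf4 is a chemokine of platelet granules, and Car2 is a carbonic anhydrase abundant in red cells. Gata1 is also used by eosinophils and mast cells, and CD41 is carried by some early progenitors, so that single members do not define a lineage.

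Sequences are shown for the members that differed between dKO and WTFL cells in at least 1 clone and whose promoter window in the RefSeq table used lay outside annotated exons. Car2 had no entry in that table. Each line holds the 250 bases before a RefSeq start site, 5′ to 3′ on the strand of the gene, in build GRCm38.p6. Capitals mark matches, on either strand, to GATAA (GATA motif, bound by GATA factors), CACCC (Klf motif, bound by Klf1 and related factors), CAGATG (E-box, bound by Tal1 complexes) and TTGCNNAA (C/EBP motif). The windows are chrX:7967911-7968160 on the minus strand for Gata1, chr8:122281891-122282140 on the plus strand for Zfpm1, chr4:115056176-115056425 on the plus strand for the first of the starts listed for Tal1, chr2:28621983-28622232 on the minus strand for Gfi1b and chr5:90772185-90772434 on the plus strand for Pf4.
Gata1 promoter: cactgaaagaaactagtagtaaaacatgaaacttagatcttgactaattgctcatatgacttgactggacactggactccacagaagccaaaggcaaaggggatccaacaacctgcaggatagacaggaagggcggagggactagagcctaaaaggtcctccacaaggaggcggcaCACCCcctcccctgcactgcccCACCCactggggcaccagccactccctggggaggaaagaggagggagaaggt
Zfpm1 promoter: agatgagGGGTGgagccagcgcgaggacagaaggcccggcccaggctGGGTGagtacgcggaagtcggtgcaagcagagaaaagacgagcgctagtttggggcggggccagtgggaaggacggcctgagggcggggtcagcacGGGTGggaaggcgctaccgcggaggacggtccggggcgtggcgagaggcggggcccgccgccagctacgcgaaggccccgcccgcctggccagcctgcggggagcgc
Tal1 promoter: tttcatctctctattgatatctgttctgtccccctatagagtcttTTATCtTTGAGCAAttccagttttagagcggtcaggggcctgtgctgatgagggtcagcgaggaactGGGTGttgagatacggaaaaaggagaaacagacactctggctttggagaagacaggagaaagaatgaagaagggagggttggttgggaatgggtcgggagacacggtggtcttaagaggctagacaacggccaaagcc
Gfi1b promoter: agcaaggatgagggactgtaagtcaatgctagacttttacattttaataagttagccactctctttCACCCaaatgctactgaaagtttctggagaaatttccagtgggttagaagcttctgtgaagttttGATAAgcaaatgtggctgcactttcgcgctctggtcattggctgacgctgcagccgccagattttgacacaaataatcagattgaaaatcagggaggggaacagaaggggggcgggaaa
Pf4 promoter: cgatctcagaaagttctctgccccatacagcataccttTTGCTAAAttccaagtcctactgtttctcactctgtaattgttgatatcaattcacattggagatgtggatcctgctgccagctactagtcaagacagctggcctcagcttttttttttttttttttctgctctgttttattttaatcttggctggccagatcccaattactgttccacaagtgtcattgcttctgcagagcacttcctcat

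The Gata1 window held 2 matches to the Klf motif, the Zfpm1 window 3, and neither held the GATA motif. Gfi1b held 1 match to the GATA motif, 115 to 119 bases before the start, and 1 to the Klf motif. Tal1 held 1 match each to the GATA, Klf and C/EBP motifs, and the window of its second listed start (chr4:115057561-115057810) held none of the 4 motifs, while Pf4 held 1 match to the C/EBP motif and none to the others. No matches overlapped in these windows. Among 32851 promoter windows of this length, 22.6% held the GATA motif, 52.0% the Klf motif, 14.4% the E-box and 9.56% the C/EBP motif, and a match describes the letters only. For Itga2b, 180 of the 250 bases lie in an annotated exon, and its window held none of these motifs.

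Between 9212237 and 13613500 reads per library lay on genes (median 11885279). A normalized read is a read count divided by the size factor of its library, and 3 reads per library are treated as the floor. Cebpa had no read in any dKO library of either clone, against 1101 ± 292 (SD, n = 3) normalized reads in C1 WTFL and 1963 ± 307 in C2 WTFL cells. Cebpb likewise had none in dKO cells, against 1454 ± 90.7 and 1467 ± 148 in WTFL cells, and stood at 3106 ± 961 in dKO-LAP* cells. The introduced gene of these cells is of rat, so the last value cannot be read as a level of the mouse gene beside the WTFL means. Cebpe, the gene of C/EBPε, stood at 408 ± 55.8 normalized reads in C1 WTFL and 2107 ± 143 in C1 dKO cells. It stood at 1809 ± 257 in dKO-LAP*, 505 ± 10.5 in C2 WTFL and 2166 ± 51.9 in C2 dKO cells. The part of Cebpe in the levels of the members was not tested. All 8 myeloid progenitor markers had reads in every group. Of the erythroid markers, Hba-a2, Alas2 and Slc4a1 had no read in any library. In bulk samples, fewer cells of a type and less RNA per cell cannot be told apart.

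In dKO cells, 5 of the 9 genes differed from WTFL cells in each clone. In C1, Gata1, Itga2b, Tal1 and Zfpm1 were higher and Pf4 was lower, against 37.0% of 12673 tested genes called, 17.1% higher and 19.9% lower. In C2, Gata1, Itga2b, Gfi1b, Zfpm1 and Car2 were higher, against 37.6% of all tested genes called, 17.4% higher and 20.1% lower. No member was lower in C2 by limma, either at an adjusted p under 0.05 (0 genes) or an unadjusted one (0), by edgeR (0) or by DESeq2 (0). Tests covered 7 members, since Klf1 and Epor did not reach 10 normalized reads in 3 libraries. Gata1 reached that limit only through the 3 C1 dKO libraries in which it was highest, so its call in C1 is partly set by the filter and the counts are a description of the set. Tal1 reached it only in C1 dKO and dKO-LAP* libraries, and Pf4 only in C1 WTFL and dKO-LAP* libraries. Calls of Tal1 and Pf4 that involve these groups are thus partly set by the filter too. Among all tested genes, the libraries of dKO and WTFL cells did not overlap for 45.2% in C1 and 51.5% in C2, against which the statements on overlap below are to be read.

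**Figure D1:**
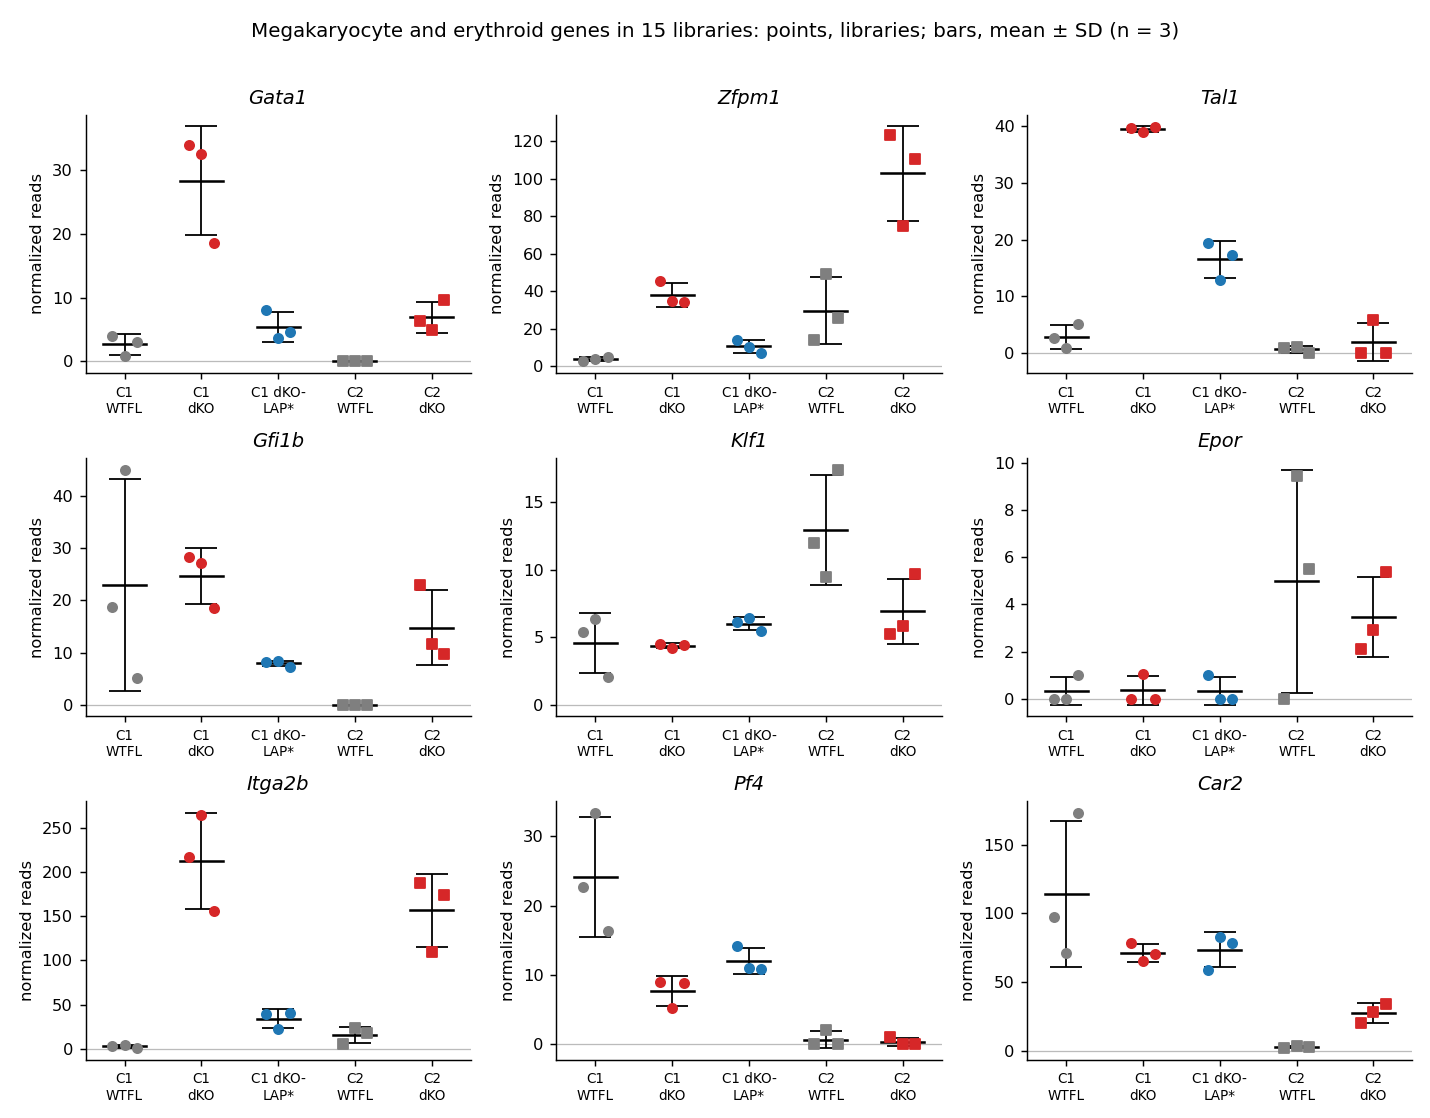
Normalized reads (linear y axis) of each of the 9 genes in every library, with circles for clone C1, squares for clone C2, grey for WTFL, red for dKO and blue for dKO-LAP*; black bars give the mean and SD of 3 libraries. Itga2b went from at most 4.51 in C1 WTFL libraries to between 156 and 264 in C1 dKO libraries, and the y axis differs between panels.

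Gata1 (chrX:7959260-7978071, minus strand, mm10), the zinc finger factor, was low throughout. It had 4.01, 0.90 and 3.06 normalized reads in C1 WTFL libraries, from 3, 1 and 3 reads, and 34.0, 32.5 and 18.5 in C1 dKO libraries. No read was found in any of the 3 C2 WTFL libraries, while the C2 dKO libraries had 6.28, 4.86 and 9.65. The groups did not overlap in either clone, and all C2 dKO libraries lay below the C1 dKO libraries. The difference in C1 was 3.07 on the log2(normalized reads + 1) scale (SE 0.43, adjusted p = 3.30e-05, limma), and dKO was 11.2 times WTFL by read counts (95% exact counting interval 5.20 to 28.7). Counting intervals cover counting error only. In C2, Gata1 was also called higher (adjusted p = 5.61e-05), and the mean in dKO was at least 2.34-fold higher, against the floor of 3 reads per library.

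Zfpm1 (chr8:122282141-122337251, plus strand), the cofactor of Gata1, had 2.68, 3.61 and 5.09 normalized reads in C1 WTFL and 45.3, 34.6 and 34.4 in C1 dKO libraries. In C2 it had 13.9, 49.3 and 25.6 in WTFL and 123, 74.8 and 110.5 in dKO libraries. The dKO libraries lay above the WTFL libraries within each clone, while the C2 WTFL libraries spanned the C1 dKO range. The log2 difference was 3.05 in C1 (SE 0.38, adjusted p = 1.10e-05) and 1.91 in C2 (SE 0.38, adjusted p = 0.000927). The read-through gene Gm20388, which overlaps Zfpm1, held 0 reads.

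Tal1 (chr4:115056426-115071755, plus strand), a partner of Gata1 in erythroid complexes, had 2.68, 0.90 and 5.09 normalized reads in C1 WTFL and 39.6, 38.8 and 39.7 in C1 dKO libraries, with no overlap. The log2 difference in C1 was 3.53 (SE 0.63, adjusted p = 0.000347). In C2 it had 1.00, 1.05 and 0 in WTFL and 0, 5.83 and 0 in dKO libraries. The C2 groups overlapped, with 2 reads in all in WTFL and 6 in dKO cells, and the difference was not called (adjusted p = 0.793). By read counts dKO was 3.14 times WTFL in C2, with a counting interval of 0.561 to 31.8, so that a change was not detectable there at this depth.

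Gfi1b (chr2:28609450-28621982, minus strand), the repressor, had 18.7, 45.1 and 5.09 normalized reads in C1 WTFL and 28.3, 27.3 and 18.5 in C1 dKO libraries. The WTFL libraries spanned the dKO libraries on both sides, and no difference was called (log2 0.52, 95% interval -0.62 to 1.65, adjusted p = 0.486). In C2 no WTFL library had a read, and the dKO libraries had 23.0, 11.7 and 9.65. Gfi1b was called higher in C2 (adjusted p = 3.55e-05), with a dKO mean at least 4.99-fold higher, against the floor.

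Klf1 (chr8:84901928-84905291, plus strand), the globin activator, stayed at or under 17.4 normalized reads in every library. Its levels were 5.35, 6.31 and 2.04 in C1 WTFL, 4.53, 4.20 and 4.41 in C1 dKO, 11.9, 9.44 and 17.4 in C2 WTFL and 5.23, 5.83 and 9.65 in C2 dKO libraries. The groups overlapped in both clones. Without the filter on low values, limma called neither dKO difference (adjusted p = 1.00 in C1 and 0.225 in C2), and the log2 difference in C2 was -0.82 (95% interval -1.72 to 0.08). By read counts, dKO was 0.523 times WTFL in C2 (counting interval 0.290 to 0.916), and edgeR with a minimum of 5 normalized reads made no call (adjusted p = 0.0876).

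Epor (chr9:21958897-21963506, minus strand), the erythropoietin receptor, had 0, 0 and 1.02 normalized reads in C1 WTFL and 0, 1.05 and 0 in C1 dKO libraries, which is 1 read in each group. In C2 it had 0, 9.44 and 5.50 in WTFL and 2.09, 2.92 and 5.36 in dKO libraries. The C2 groups overlapped, and dKO was 0.697 times WTFL by read counts (counting interval 0.280 to 1.66). Csf2rb, the chain shared by IL-3 family receptors, stood at 556 to 931 normalized reads per kilobase of exon in the group means, against 0.171 to 2.50 for Epor.

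Itga2b (chr11:102453297-102470122, minus strand), the CD41 chain, had the highest level per kilobase of the set in C1 dKO cells. It had 2.68, 4.51 and 1.02 normalized reads in the C1 WTFL libraries and 217, 264 and 156 in C1 dKO libraries. In C2 it had 5.98, 24.1 and 17.4 in WTFL and 187, 109.8 and 174 in dKO libraries. The dKO libraries of each clone lay above every WTFL library of that clone, and the dKO libraries of C1 and C2 overlapped. The log2 difference was 5.92 in C1 (SE 0.45, adjusted p = 5.05e-08) and 3.38 in C2 (SE 0.45, adjusted p = 2.34e-05). By read counts alone, dKO was 74.2 times WTFL in C1 (counting interval 37.4 to 173) and 9.89 times in C2 (7.33 to 13.6). A small RNA gene that overlaps Itga2b, Gm23563, held 2 reads over all libraries.

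Pf4 (chr5:90772435-90773383, plus strand), the platelet chemokine, was lower in C1 dKO cells. It had 22.8, 33.4 and 16.3 normalized reads in C1 WTFL and 9.06, 5.24 and 8.83 in C1 dKO libraries, with no overlap. The log2 difference was -1.51 (SE 0.47, adjusted p = 0.0200). The call was lost without replicate 2 of C1 WTFL (log2 -1.25, adjusted p = 0.0829), without replicate 2 of C1 dKO (log2 -1.28, adjusted p = 0.0818) and with a pseudocount of 0.1 (log2 -1.61, adjusted p = 0.276). In C2 it had 0, 2.10 and 0 in WTFL and 1.05, 0 and 0 in dKO libraries, at the floor in both.

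Car2 (chr3:14886273-14900770, plus strand), the carbonic anhydrase, had 97.7, 71.2 and 173 normalized reads in C1 WTFL and 78.1, 65.0 and 70.6 in C1 dKO libraries. These overlapped, with no call (log2 -0.58, 95% interval -1.20 to 0.04, adjusted p = 0.138), and without replicate 2 of C1 WTFL it was called lower (log2 -0.86, adjusted p = 0.0341). In C2 it had 1.99, 3.15 and 2.75 in WTFL and 19.9, 28.2 and 34.3 in dKO libraries. The C2 groups did not overlap, and the log2 difference was 2.95 (SE 0.29, adjusted p = 1.27e-06). By read counts, which were 8 in all in C2 WTFL, dKO was 10.5 times WTFL (counting interval 5.06 to 25). The C2 dKO libraries stayed below all libraries of C1.

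Some of these sizes rest on few WTFL reads and moved with the setting. Over the alternatives made with all libraries, the log2 difference in C1 ranged from 4.81 to 6.42 for Itga2b (8 reads in all in C1 WTFL). It ranged from 2.11 to 3.55 for Gata1, 2.29 to 3.33 for Zfpm1 and 2.53 to 4.02 for Tal1. In C2 the range was 2.07 to 3.40 for Car2, 1.23 to 6.08 for Gata1 and 1.92 to 7.11 for Gfi1b. Each of these calls was kept. Leaving out a library lowered the C2 bound to 1.88-fold for Gata1 and 3.60-fold for Gfi1b.

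**Figure D2:**
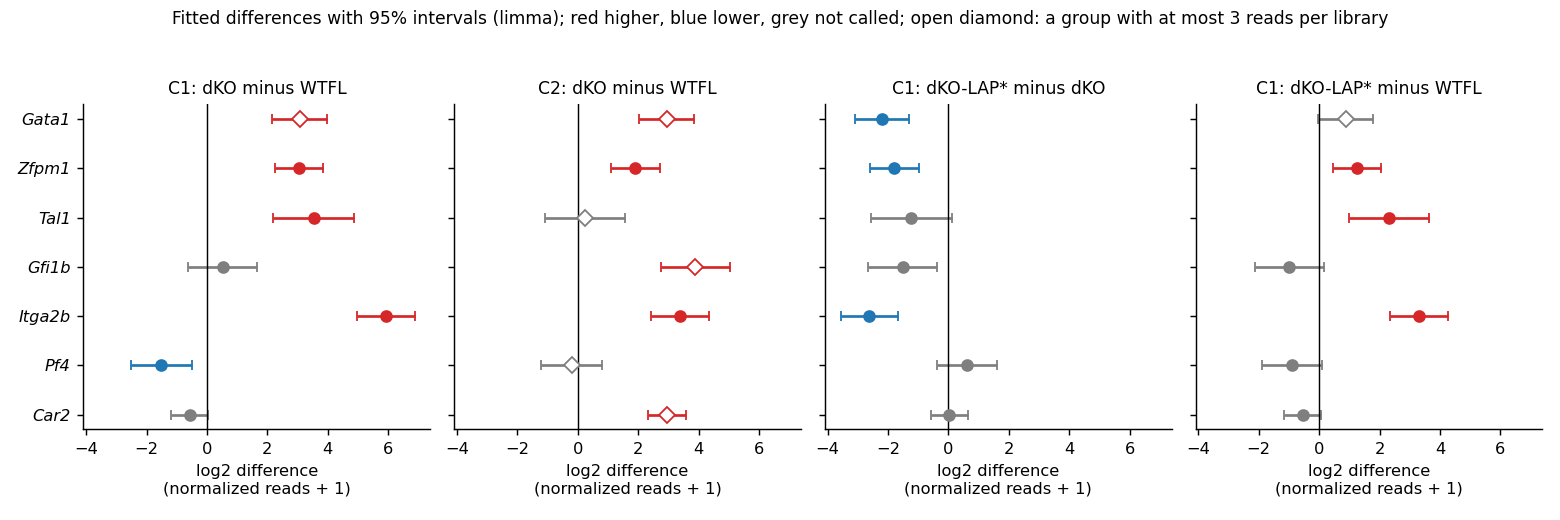
Fitted log2(normalized reads + 1) differences with 95% intervals from limma for the 7 tested genes; red marks a call of higher, blue lower and grey no call, and an open diamond marks a comparison in which a group had at most 3 reads in every library, so that its size depends on the pseudocount. Gata1, Zfpm1 and Itga2b lie to the right of 0 for dKO against WTFL in both clones and to the left of 0 for dKO-LAP* against dKO cells.

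The dKO effect itself was compared between clones. It was larger in C2 for Gfi1b (difference 3.37 on the log2 scale, SE 0.76, adjusted p = 0.00322) and Car2 (3.53, SE 0.41, adjusted p = 1.41e-05), and smaller in C2 for Itga2b (-2.54, SE 0.63, adjusted p = 0.00638) and Tal1 (-3.29, SE 0.89, adjusted p = 0.0108). Over all tested genes, 29.4% differed between the clones, 15.1% with a larger and 14.3% with a smaller value in C2. For Tal1 the call was absent with edgeR (adjusted p = 0.405), with DESeq2 (adjusted p = 0.283) and with a pseudocount of 0.1 (adjusted p = 0.0946), and the log2 value was -4.21 without replicate 2 of C2 dKO. For Gfi1b the value was 2.68 without replicate 2 and 4.14 without replicate 3 of C1 WTFL, and the call was lost with a pseudocount of 5 (log2 1.57, adjusted p = 0.0523). The C2 WTFL libraries of Gfi1b had no read and those of Tal1 at most 1, so the size of either difference depends on the pseudocount. For Car2, with 2, 3 and 3 reads in C2 WTFL libraries, the difference between clones ranged from 2.62 to 4.07 over the alternatives, and for Itga2b from -2.94 to -1.77. Gata1, Zfpm1 and Pf4 showed no called difference (adjusted p = 0.903, 0.126 and 0.161). The exceptions were Zfpm1 without replicate 1 of C2 WTFL (log2 -1.57, adjusted p = 0.0233), Pf4 without replicate 2 of C2 WTFL (log2 1.85, adjusted p = 0.0306) or with a pseudocount of 5 (adjusted p = 0.0258), and Gata1 with a pseudocount of 0.1 (log2 2.53, adjusted p = 0.0329).

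The WTFL cells of the 2 clones differed in most of these genes. Itga2b and Zfpm1 were higher in C2 than in C1 WTFL cells and Gata1, Pf4, Gfi1b and Car2 lower, against 41.0% of all tested genes called, 19.7% higher and 21.3% lower, and 50.6% with no overlap. Car2 was 43.3 times higher in C1 by read counts (counting interval 21.7 to 101), a log2 difference of -4.90 for C2 minus C1 (SE 0.29, adjusted p = 2.34e-09). Pf4 was 37.6 times higher in C1 (counting interval 10.0 to 317), from 70 against 2 reads, and both of the latter came from replicate 2 of C2 WTFL. Gfi1b was at least 7.76-fold lower in C2, where it had no read (adjusted p = 1.21e-05), and at least 4.02-fold without replicate 2 of C1 WTFL. Gata1 lay at the floor in WTFL cells of both clones, with 7 reads in all in C1 and 0 in C2, so no fold is given. Its call (adjusted p = 0.00352) was lost with a pseudocount of 5 (adjusted p = 0.0788). Zfpm1 exceeded C1 in C2 by 2.53 (SE 0.38, adjusted p = 5.50e-05) and Itga2b by 2.10 (SE 0.45, adjusted p = 0.00131). Tal1 was not called (adjusted p = 0.170) except without replicate 2 of C2 dKO, which enters the shared spread (adjusted p = 0.0473). Klf1, tested without the filter, was higher in C2 (log2 1.38, SE 0.43, adjusted p = 0.0253). Epor was not called by limma without the filter (adjusted p = 0.0791) and was called higher in C2 by edgeR with a minimum of 5 normalized reads (adjusted p = 0.0354).

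With LAP* in C1 dKO cells, Gata1, Itga2b and Zfpm1 were lower than in dKO cells without it, the 3 genes called higher in the dKO cells of both clones. Of all tested genes, 4.46% were called in this comparison, 3.03% lower and 1.43% higher, and 24.1% did not overlap. No member was called higher by limma, either at an adjusted (0 genes) or an unadjusted p under 0.05 (0), by edgeR (0) or by DESeq2 (0). This comparison and that of dKO with WTFL cells share the 3 C1 dKO libraries, so opposite signs in them are not independent.

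Itga2b had 39.6, 22.1 and 41.0 normalized reads in dKO-LAP* libraries, between the WTFL and dKO libraries without overlap. It fell by 2.62 on the log2 scale (SE 0.45, adjusted p = 0.00307) and remained above WTFL by 3.30 (SE 0.45, adjusted p = 2.70e-05). Gata1 had 8.13, 3.69 and 4.56 and fell by 2.20 (SE 0.43, adjusted p = 0.00721), and it overlapped the WTFL libraries (log2 0.87, 95% interval -0.03 to 1.78, adjusted p = 0.134). Since Gata1 passed the filter only through the C1 dKO libraries, its call against them is partly set by the filter here too. Zfpm1 had 14.2, 10.1 and 7.30 and fell by 1.79 (SE 0.38, adjusted p = 0.0129), again between both groups without overlap. That call was lost without replicate 3 of dKO-LAP* (log2 -1.58, adjusted p = 0.0722) or replicate 1 of C1 dKO (log2 -1.66, adjusted p = 0.0570). Zfpm1 remained above WTFL by 1.26 (SE 0.38, adjusted p = 0.0182), which was not called with edgeR (adjusted p = 0.0756), DESeq2 (adjusted p = 0.0527) or a pseudocount of 5 (adjusted p = 0.0576), nor without replicate 1 of dKO-LAP* (log2 1.04, adjusted p = 0.0803) or of WTFL (log2 1.08, adjusted p = 0.0723).

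Tal1, at 19.3, 12.9 and 17.3 normalized reads in dKO-LAP* libraries, lay between WTFL and dKO cells without overlap. Its log2 difference from dKO was -1.22 (95% interval -2.56 to 0.11, adjusted p = 0.326) and from WTFL 2.31 (SE 0.63, adjusted p = 0.00965), the latter not called with a pseudocount of 0.1 (adjusted p = 0.130). Gfi1b had 8.13, 8.30 and 7.30, below every C1 dKO library, and the log2 difference of -1.51 was not called (95% interval -2.65 to -0.37, adjusted p = 0.137). In a fit of only the groups compared, both Gfi1b (adjusted p = 0.0233) and Tal1 (adjusted p = 0.0309) were called lower than in dKO cells, and Tal1 also with a pseudocount of 5 (log2 -1.06, adjusted p = 0.0454). Against WTFL cells, Gfi1b overlapped with no call (log2 -0.99, 95% interval -2.13 to 0.15, adjusted p = 0.179). Without replicate 3 of C1 WTFL, Gfi1b was called lower than in dKO (adjusted p = 0.0288) and WTFL cells (log2 -1.76, adjusted p = 0.00417). Leaving out each library in turn gave a log2 difference from WTFL of -1.76 to -0.30 for Gfi1b.

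Pf4 stood at 14.2, 11.1 and 10.9 in dKO-LAP* libraries, between dKO and WTFL without overlap, and was called in neither comparison (adjusted p = 0.551 and 0.167), except against WTFL with a pseudocount of 5 (log2 -0.73, adjusted p = 0.0308). Car2 had 58.9, 83.0 and 78.4, which overlapped dKO (log2 0.03, 95% interval -0.59 to 0.65, adjusted p = 0.976), and it overlapped WTFL with no call (log2 -0.55, 95% interval -1.17 to 0.08, adjusted p = 0.176). It was called lower than in WTFL cells when replicate 2 of C1 WTFL was left out (log2 -0.83, adjusted p = 0.0454). Klf1 had 6.09, 6.45 and 5.47 and Epor 1.02, 0 and 0. Against WTFL cells, Itga2b, Tal1 and Zfpm1 were higher and no member lower (0 genes at an unadjusted p under 0.05, and 0 by edgeR and by DESeq2), where 32.5% of all tested genes were called, 14.2% higher and 18.3% lower, and 40.9% did not overlap.

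Per kilobase of exon, the order of the members changed between groups. In C1 WTFL cells Car2 (47.1 ± 21.9 normalized reads per kilobase, SD, n = 3) and Pf4 (33.5) stood highest and overlapped each other, while Itga2b (0.502) came next to last, before Epor. In C1 dKO cells Itga2b (39.0 ± 9.94) and Car2 (29.4 ± 2.72) led and overlapped, and Gfi1b, Gata1, Zfpm1 and Pf4 followed at 10.7 to 13.5. In dKO-LAP* cells Car2 (30.3 ± 5.27) and Pf4 (16.7 ± 2.58) led again, without overlap. Zfpm1 (8.46 ± 5.14) and Klf1 (8.45 ± 2.66) led in C2 WTFL cells, and Zfpm1 (29.4 ± 7.18) and Itga2b (28.8 ± 7.58) in C2 dKO cells, with overlap in each pair. Across groups, Gata1 was highest in C1 dKO cells, and the next groups, C2 dKO, dKO-LAP* and C1 WTFL, each overlapped their neighbour. Zfpm1 was highest in C2 dKO cells, without overlap with the next group.

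The member transcription factors were set beside their closest relatives. Gata2, the GATA factor of stem, progenitor and mast cells, rose from 9.77 ± 4.30 to 260.1 ± 9.05 normalized reads in C1 (log2 4.69, SE 0.24, adjusted p = 8.10e-10) and from 67.5 ± 8.99 to 549 ± 94.8 in C2 (log2 3.00, SE 0.24, adjusted p = 1.44e-07). Per kilobase of exon, Gata2 stood at 48.2 and 102 in the dKO cells of C1 and C2, against 11.6 and 2.84 for Gata1. In dKO-LAP* cells Gata2 differed from dKO by -0.41 (adjusted p = 0.404). Gfi1, the myeloid relative of Gfi1b, stood at 773 to 1629 per kilobase in the group means, against 0 to 13.5 for Gfi1b. Lyl1, the relative of Tal1, stood at 779 to 1005 against 0.156 to 9.0 for Tal1, and differed in no dKO comparison (adjusted p = 0.481 in C1, 0.208 in C2).

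**Figure D3:**
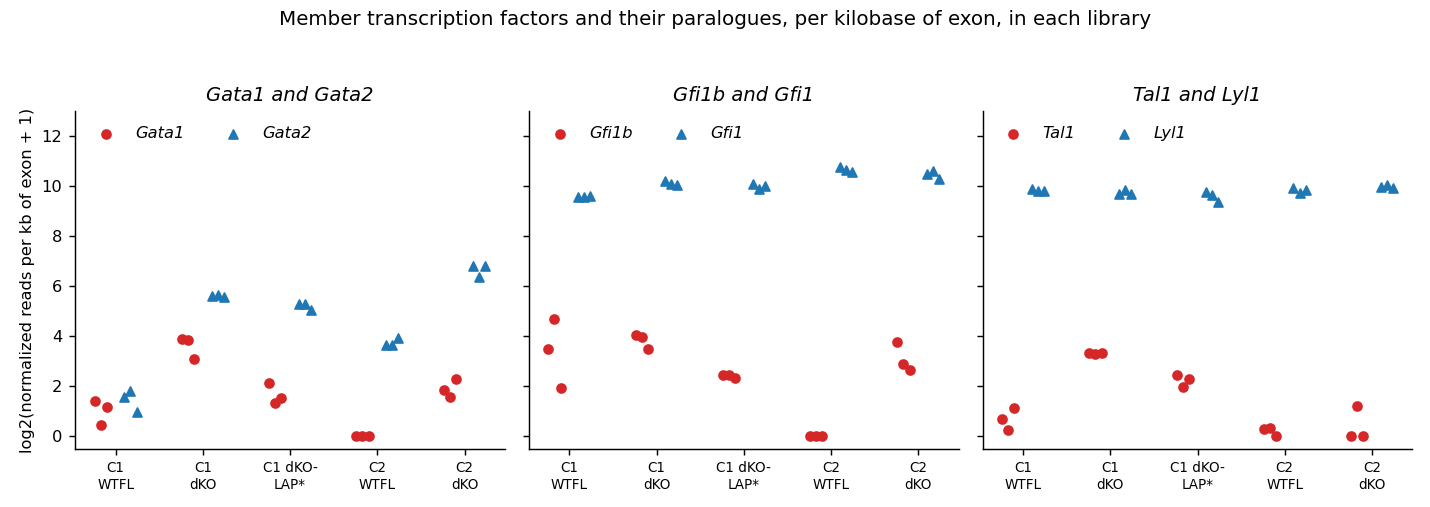
Levels of Gata1, Gfi1b and Tal1 (red circles) and of their relatives Gata2, Gfi1 and Lyl1 (blue triangles) in each library, as log2(normalized reads per kilobase of exon + 1). Gfi1 and Lyl1 lie far above Gfi1b and Tal1 in every group, while Gata1 and Gata2 overlap in C1 WTFL libraries and are apart in dKO libraries.

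Further partners were counted from a list of 23 cofactors and relatives, of which 20 were tested. In C1, 7 were higher and 3 lower in dKO cells, and in C2 6 were higher and 3 lower (median log2 difference 0.145 and 0.0640, against -0.0148 and -0.0271 over all tested genes), where 37.0% and 37.6% of all tested genes were called. Cbfa2t3, a corepressor found in Tal1 complexes, rose from 244 ± 25.1 to 686 ± 77.9 in C1 (adjusted p = 8.88e-08) and from 213 ± 32.6 to 1560.4 ± 101 in C2 (adjusted p = 5.23e-11). Erg, an ETS factor of stem cells and megakaryocytes, rose from 104 ± 14.8 to 308 ± 23.2 and from 15.6 ± 7.75 to 355 ± 22.2 (adjusted p = 7.16e-05 and 8.60e-10). Bcl11a, a repressor of fetal globin genes, stood at 411 ± 34.2 in C1 WTFL cells and had no read in C1 dKO libraries, and C2 WTFL cells had 0.350 ± 0.606. Spi1 (PU.1), a myeloid factor that can oppose Gata1, was not called (adjusted p = 0.737 in C1, 0.192 in C2). Between dKO-LAP* and dKO cells, limma called 0 of the 20, against 1 at an unadjusted p under 0.05, 0 by edgeR and 0 by DESeq2.

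Most red cell structural genes were at or near 0 in every group. Of 26 listed globin, membrane and red cell genes, 24 were analysed, since Hbb-bs and Ahsp were not found by name. Of these, 11 had no read in any library and 20 had at most 3 reads in every library. Hbb-bt, an adult beta globin, had 21 reads in all in the C1 dKO libraries, 1 in C2 dKO and none elsewhere. Hemgn, a nuclear protein of blood progenitors, had 26 reads in all in C1 WTFL and 19 in C1 dKO libraries, and Tspan33 had 11 in C2 WTFL libraries. Tmcc2 was the only gene of the list to be tested, at 2.82 ± 0.211 in C1 WTFL and 6.44 ± 3.60 in C1 dKO cells (log2 0.86, adjusted p = 0.118), and at 17.8 ± 9.35 in C2 WTFL and 16.5 ± 1.84 in C2 dKO cells, with no call in either clone (log2 0.04, adjusted p = 0.960 in C2). It was higher in C2 than in C1 WTFL cells (log2 2.16, adjusted p = 0.000558). No gene of the list was called in either direction between dKO and WTFL cells of C1 or C2 by limma, also at an unadjusted p under 0.05, by edgeR or by DESeq2 (0 each).

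Genes of haem synthesis and iron import, which all cells use, were well covered. Among 12 tested, 3 were higher and 3 lower in C1 dKO cells, and 2 higher and 3 lower in C2, where 37.0% and 37.6% of all tested genes were called. Alas1, the general first enzyme of the pathway, fell by 1.02 in C1 (SE 0.11, adjusted p = 3.69e-06) and differed by 0.08 in C2 (adjusted p = 0.599). Ppox, a later enzyme, rose by 0.31 and 0.75 (adjusted p = 0.0130 and 7.29e-06), and the mitochondrial transporter Abcb10 by 0.64 and 0.35 (adjusted p = 0.000262 and 0.0219). Cpox fell by 0.53 in C2 (adjusted p = 0.0109), and Fech, which inserts the iron, was not called in C1 (adjusted p = 0.0712) or C2 (adjusted p = 0.988). In dKO-LAP* cells, 1 gene of the 12, Ppox, was lower than in dKO cells (-0.50, adjusted p = 0.00373).

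Calls among the megakaryocyte and platelet genes went in both directions, as they did among all tested genes (17.1% higher and 19.9% lower in C1, 17.4% and 20.1% in C2). Of 26 listed genes, 11 had at most 3 reads in every library and 11 were tested, of which 4 rose and 4 fell in C1 dKO cells and 2 rose and 2 fell in C2. Itgb3, the integrin chain that pairs with CD41, fell in C1 from 648 ± 74.6 to 336 ± 9.88 (log2 -0.94, SE 0.13, adjusted p = 3.29e-05) and rose in C2 from 109.7 ± 9.91 to 196 ± 35.3 (log2 0.82, SE 0.13, adjusted p = 0.000133). Itga2b rose in both clones, so the chains moved in opposite directions in C1. Vwf, the platelet adhesion protein, fell by 1.66 in C1 and 3.37 in C2 (adjusted p = 0.0109 and 3.71e-05), and the membrane protein Cd9 fell by 2.04 and 2.75 (adjusted p = 0.000233 and 1.48e-05). Gp1bb, a chain of the von Willebrand receptor, rose in C1 from 2.78 ± 0.789 to 32.1 ± 9.15 (adjusted p = 3.78e-05) and was not called in C2 (adjusted p = 0.154). Ppbp, a platelet chemokine like Pf4, fell by 2.53 in C1 (adjusted p = 0.00278) and was not called in C2 (log2 0.37, adjusted p = 0.655), and this effect differed between the clones (log2 2.90, adjusted p = 0.0144). Thbs1, a platelet granule protein, was not called (adjusted p = 0.888 in C1, 0.448 in C2). Between dKO-LAP* and dKO cells limma called 0 of the 11, against 2 at an unadjusted p under 0.05, 0 by edgeR and 0 by DESeq2.

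The signalling genes downstream of Epor are largely shared with the IL-3 receptor. Of 16 tested, 4 rose and 5 fell in C1 dKO cells, and 3 rose and 3 fell in C2, where 37.0% and 37.6% of all tested genes were called. Jak2, the kinase bound to both receptors, rose by 0.92 in C1 (SE 0.10, adjusted p = 4.26e-06) and by 0.74 in C2 (SE 0.10, adjusted p = 4.47e-05). The feedback gene Socs3 fell by 2.23 in C1 (adjusted p = 5.14e-05) and was not called in C2 (log2 -0.69, adjusted p = 0.110), while Socs2 rose by 0.63 in C1 (adjusted p = 0.00269). Il3ra, the IL-3 receptor chain, fell by 0.62 in C2 (adjusted p = 0.00680), and Csf2rb was not called in C1 (adjusted p = 0.0825) or C2 (adjusted p = 0.0749). Between dKO-LAP* and dKO cells limma called 0 of the 16, against 3 at an unadjusted p under 0.05, 0 by edgeR and 2 by DESeq2.

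Marker lists of the lineages that could be present were summed per library. Erythroid markers summed to 6.29 to 7.94 normalized reads in C1 dKO libraries and at most 0.970 elsewhere. This sum holds 6 of the 8 listed genes, since Hbb-bs, an adult beta globin, and Ahsp were not found by name. Megakaryocyte markers, carried mainly by Itgb3, summed to 602 to 744 in C1 WTFL, 337 to 357 in C1 dKO, 344 to 388 in dKO-LAP*, 115 to 131 in C2 WTFL and 163 to 236 in C2 dKO libraries. Of the 8 markers, 6 had a read in dKO and 5 in WTFL cells of each clone.

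Mast cell and basophil markers, 10 genes led by Cpa3, Hdc and Mcpt8, summed to 98.8 to 134 in C1 WTFL, 2642 to 3045 in C1 dKO, 887 to 1135 in dKO-LAP*, 103 to 129 in C2 WTFL and 537 to 778 in C2 dKO libraries. Of these 10, 3 had a read in C1 WTFL, 7 in C1 dKO, 4 in dKO-LAP*, 4 in C2 WTFL and 5 in C2 dKO cells, and Tpsb2, Tpsab1 and Mcpt4 were at 0 in every library. In C2 dKO cells Cpa3 and Hdc rose (log2 8.12 and 2.42, adjusted p = 3.07e-13 and 3.66e-05), while Ms4a2 fell from 61.8 ± 12.3 to 8.10 ± 3.98 (log2 -2.85, adjusted p = 5.88e-06). Eosinophil markers, 10 genes led by Prg2, Epx and Siglecf, summed to 136 to 239 in C1 WTFL, 9096 to 17671 in C1 dKO, 1152 to 2248 in dKO-LAP*, 22.0 to 32.1 in C2 WTFL and 276 to 387 in C2 dKO libraries. All 10 had reads in C1 dKO and dKO-LAP* cells, 5 in C1 WTFL cells, where Prg2, Epx, Prg3, Ear1 and Il5ra were at 0, 6 in C2 WTFL and 9 in C2 dKO cells. In C2, Ear2 fell in dKO cells (log2 -2.22, adjusted p = 0.0111), against the direction of the sum. The C1 groups stood in the same order by both sums as by the means of Gata1, Zfpm1, Tal1 and Itga2b, and by the median of the myeloid progenitor sum. That sum lay at 69104 to 72277 in C1 WTFL, 141319 to 163795 in C1 dKO, 132723 to 158190.0 in dKO-LAP*, 57766 to 62246 in C2 WTFL and 107093 to 123587 in C2 dKO libraries. The C1 dKO and dKO-LAP* libraries overlapped by this sum, but not by the mast cell and eosinophil sums. The means of Gfi1b, Pf4, Car2 and Klf1 put the C1 groups in other orders, and Epor lay at the floor in them. The part of mast cells and eosinophils in the levels of the members was not tested.

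Macrophage markers summed to 7654 to 11155 in C1 WTFL, 2596 to 3475 in C1 dKO, 2635 to 3152 in dKO-LAP*, 1192 to 1874 in C2 WTFL and 1369 to 2147 in C2 dKO libraries, and their part in the levels of Pf4 and Car2 was not tested. The C2 sum joins Adgre1, which was higher in dKO cells (log2 2.30, adjusted p = 1.14e-06), with Cd68 (-0.57, adjusted p = 0.00765), Mrc1 (-2.68, adjusted p = 0.000424) and Lpl (-8.73, adjusted p = 8.78e-10), which were lower, and Csf1r, which was not called (adjusted p = 0.146). Cd34, a stem and progenitor marker, averaged 5.21 and 1.01 normalized reads in WTFL cells of C1 and C2, against 2623 and 6365 in dKO cells and 2907 in dKO-LAP* cells. The other 4 genes of the stem cell list, Mecom, Procr, Slamf1 and Hlf, averaged at most 4.36 in any group. B cell markers summed to at most 3.15 and T cell markers to at most 11.5 normalized reads in any library.

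**Figure D4:**
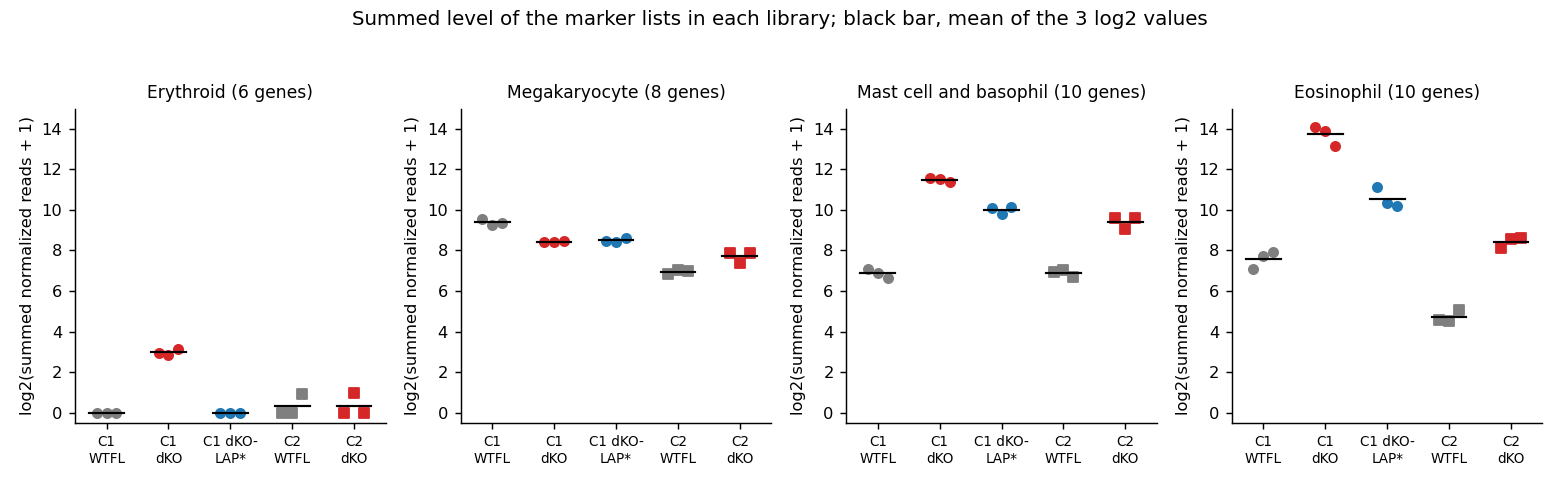
Summed normalized reads of 4 marker lists in each library, as log2(sum + 1), with circles for C1 and squares for C2. The erythroid sum stays at or under 7.94 normalized reads in every library, while the mast cell and basophil sum and the eosinophil sum are higher in dKO than in WTFL libraries of each clone, although single markers of both lists, Ms4a2 and Ear2, were lower in C2 dKO cells.

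The genes most like each member were taken as those of highest Pearson correlation of log2(normalized reads + 1) over the 15 libraries, which fall into 5 groups, among 12672 other tested genes. These were Neurl3 (r = 0.96) and Sytl1 (0.95) for Gata1, Spint2 (0.97) and St14 (0.96) for Zfpm1, and, as the second in rank, Cenps (0.95) for Tal1. Gfi1b was most like Trpm2 (0.92) and Megf9 (0.92), Itga2b like Slc2a3 (0.97) and Tcp11l2 (0.97), Pf4 like Clec4a1 (0.98) and Nxpe2 (0.97), and Car2 like Vim (0.97) and Sema4d (0.97). Among the 7 members tested, Itga2b and Zfpm1 were most alike (r = 0.82) and Pf4 and Zfpm1 least (r = -0.72). These values share the same libraries and describe them only.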

How the data were processed

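RNA-seq was analysed from 15 libraries in 5 groups, assigned by sample title. Per the labels and methods, the authors aligned reads to mm10 with STAR 2.5.3a, counted them per gene with HTSeq 0.10.0 and normalized with DESeq2 1.26.0. The deposited signal is a normalized read count per gene. The annotation and strand setting of the counting are not given in the sources used here. Values were divided by the step of their library and rounded, which gave reads and size factors (0.747 to 1.13). Of the low values above 0, 100.0% were whole reads within 0.1, and high values were rounded without this check. The 5 rows of other reads (22.4% to 26.2% of a library) and 3 columns not matched to a sample were left out. Positions and exon lengths come from GENCODE vM21, and promoters of 8 members from RefSeq.

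The main model was limma 3.58.1 in R 4.3.3 with a trended prior, fitted on log2(normalized reads + 1) with a mean for each group. It covered 12673 of 24520 genes with any read, namely those reaching 10 normalized reads in 3 or more libraries. Genes were called at a p under 0.05 after adjustment by Benjamini and Hochberg over all of them. As alternatives, edgeR 4.0.16 and DESeq2 1.42.0 took the recovered reads. These tools were tested on simulated data. Intervals are 95%. Further alternatives were pseudocounts of 0.1 and 5, no filter, quantile normalization, only the groups compared, a replicate block, a log2 limit of 1 and leaving out each library. edgeR with a minimum of 5 normalized reads was added after seeing the data.

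Members, lists and tests were chosen with earlier results of these data known. Named were all members, the deleted genes, the relatives of the members, from each pathway list up to 4 genes with the largest mean dKO difference among those called and the highest gene that was not called, from each marker list up to 3 of the highest genes, and the 2 genes most like each member. Marker and red cell genes at or near 0, and marker genes that moved against the sum of their list, were named after their values were seen. Cebpe was named because the paper reports its rise in dKO cells. Some genes that this rule or the lists name are not reported here.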

Additional observations from a re-analysis of the deposited data

Results flagged for a closer look

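4 of the 7 tested members had a dKO effect that differed between the clones by the test of the difference (C2 minus C1, limma, log2 scale). The difference was -2.54 for Itga2b, 3.37 for Gfi1b, -3.29 for Tal1 and 3.53 for Car2. For Itga2b both clones rose, from WTFL means of 2.74 in C1 and 15.8 in C2. For Car2 and Gfi1b, C2 rose from WTFL libraries with at most 3 reads, while the C1 groups overlapped. For Tal1, C1 rose and the C2 groups overlapped near 0. Of all tested genes, 29.4% differed between the clones by the same test.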

How the results depend on the processing

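The members called for dKO against WTFL cells stayed at 4 higher in C1 and 5 higher in C2 under all 9 alternatives and on leaving out each library. The number lower in C1 was 0 with a pseudocount of 0.1 and 0 to 1 on leaving out a library. The number with a smaller effect in C2 was 1 with a pseudocount of 0.1, with edgeR, with DESeq2 and with edgeR at a minimum of 5 normalized reads, a setting chosen after seeing the data. For dKO-LAP* against dKO cells, 5 were lower in a fit of only the groups compared. Against WTFL cells, 1 was lower with a pseudocount of 5 and 0 to 1 on leaving out a library. For C2 against C1 WTFL cells, 4 were higher with edgeR at a minimum of 5, where Klf1 and Epor were also tested.

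Some values that were not called changed sign. Tal1 in C2 was -0.36 with a pseudocount of 0.1. The Gata1 difference between clones, -0.13, became 2.53 with a pseudocount of 0.1, 0.032 with quantile normalization, 2.37 with edgeR, 1.77 with DESeq2 and 2.38 with edgeR at a minimum of 5, and C2 WTFL had no Gata1 read. Leaving out a library gave ranges of -0.25 to 1.21 for Gfi1b in C1, -0.54 to 0.35 for Pf4 and -0.68 to 0.71 for Tal1 in C2, -0.41 to 0.29 for Gata1 between clones, and -0.063 to 0.18 for Car2 between dKO-LAP* and dKO cells. The causes were not tested.

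Of all tested genes, an absolute log2 difference of at least 1 left 778 higher and 971 lower in C1, 526 and 915 in C2, 739 and 922 between the dKO effects, 69 and 154 for dKO-LAP* against dKO, 648 and 957 against WTFL, and 983 and 1098 for C2 against C1 WTFL cells. For dKO-LAP* against dKO cells, 86 genes were higher in a fit of only the groups compared, and leaving out a library gave 75 to 259 higher and 196 to 469 lower. edgeR on the recovered reads called 2219 genes higher and 2460 lower in C1 and 2278 and 2470 in C2.

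Same-numbered libraries of different groups did not vary together, with r over 0.1 in 5 of 30 pairs, so the numbers do not pair the samples. With replicate number as a block, 2108 genes were higher and 2449 lower in C1, 2150 and 2469 in C2, and no call of a member changed. Depth limits Gata1, Tal1, Klf1, Epor, and in C2 Pf4, whose groups hold few reads.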
